A study of Mus musculus with 8 samples.

Results

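The inflammatory chemokine ligands described here are 10 genes of the 24421 in the count table, taken by symbol: *Ccl2*, *Ccl3*, *Ccl4*, *Ccl6*, *Ccl9*, *Cxcl1*, *Cxcl2*, *Cxcl3*, *Cxcl14* and *Cxcl16*. They were measured by RNA-seq in CD11c+ cells grown from C57BL6 mouse bone marrow (BM) under conditions that induce Langerhans cell (LC)-like cells, in medium with GM-CSF at 20 ng/ml, human TGF-β1 at 10 ng/ml and 10% FBS, and collected on CD11c magnetic beads at a purity above 90%. The 2 Rara KO libraries came from ∆*Rara* CD11c mice (labelled RARa-/-), in which Cre driven by the CD11c promoter deletes floxed exon 3 of *Rara*, and they were compared with WT 1 and WT 2. The 2 RA libraries came from WT cells given all-trans retinoic acid (RA), and they were compared with the other 2 WT libraries, whose columns are named Control. These sets are called the KO experiment and the RA experiment here, after their column names (wt with ko, Control with RA). No label names separate experiments. The labels give 1 nM RA and 3 to 5 days of culture in regular or charcoal-treated FBS, the culture methods of the paper allow 1 to 10 nM RA and either serum, and its description of the RNA-seq gives 10 nM, 3 days and charcoal-treated FBS. The paper's WT mice were C57BL/6, floxed or CD11c-Cre mice, and Cre acts only once CD11c comes on. The paper calls the libraries of a group independent samples without saying whether they came from separate mice or cultures, and p-values here cover the spread among libraries.

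Chemokines are small secreted proteins that bind G protein-coupled receptors and draw leukocytes along a gradient. CCL2 acts on CCR2 of monocytes, CCL3, CCL6 and CCL9 act on CCR1, CCL4 draws monocytes and T cells, and CXCL1, CXCL2 and CXCL3 act on CXCR2 of neutrophils. CXCL14 is a chemokine of epithelia and skin, and CXCL16 is made as a membrane protein that binds CXCR6 and can be shed by the protease ADAM10. RARα, which *Rara* encodes, is a nuclear receptor that binds AGGTCA-like half-sites and is switched by RA. LCs are epidermal cells, and the paper reports that RARα promotes their development only where RA is low.

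Rara KO cells and cells given RA both had more *Ccl6*, *Ccl9* and *Cxcl14* mRNA and less *Cxcl16* mRNA than their own WT cells. *Ccl4* was higher in Rara KO cells, *Ccl3* was higher with RA and *Cxcl3* was lower with RA. *Cxcl14* was the gene with the highest fold change of all 12424 genes tested with RA, and *Ccl6* was the most abundant of the 10 in all 8 libraries. *Ccl2* and *Cxcl2* passed the test in neither comparison, and *Cxcl1* was too low to test.

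A gene was tested when it had at least 0.5 CPM, its count relative to the size of the library, in at least 2 libraries, which 9 of the 10 ligands did. It was called where the quasi-likelihood test of edgeR, adjusted over all 12424 genes, gave p under 0.05. In Rara KO cells 4 ligands were higher and 1 lower, where 13.6% of all tested genes were higher, 13.3% lower and 26.9% either. With RA 4 ligands were higher and 2 lower, where 15.2% of all tested genes were higher, 19.3% lower and 34.5% either. The median log2 fold change of the 9 ligands was 1.30 in Rara KO cells and 0.76 with RA, against 0.00275 and -0.00663 over all tested genes. In the shortest quintile of genes by coding length, which held all 9 ligands, the medians were 0.324 and 0.109. A test of the difference between the effects, RA minus Rara KO, called 1 ligand higher (*Cxcl14*) and 2 lower (*Cxcl3* and *Cxcl16*), where 1.86% of all genes were higher, 4.23% lower and 6.09% either. The comparisons share no library. In the KO comparison 7 of the 9 ligands lay above both WT libraries and 1 below, as 32.6% and 33.0% of all tested genes did, and in the RA comparison 5 lay above and 2 below, as 36.8% and 38.1% of all tested genes did.

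**Figure D1:**
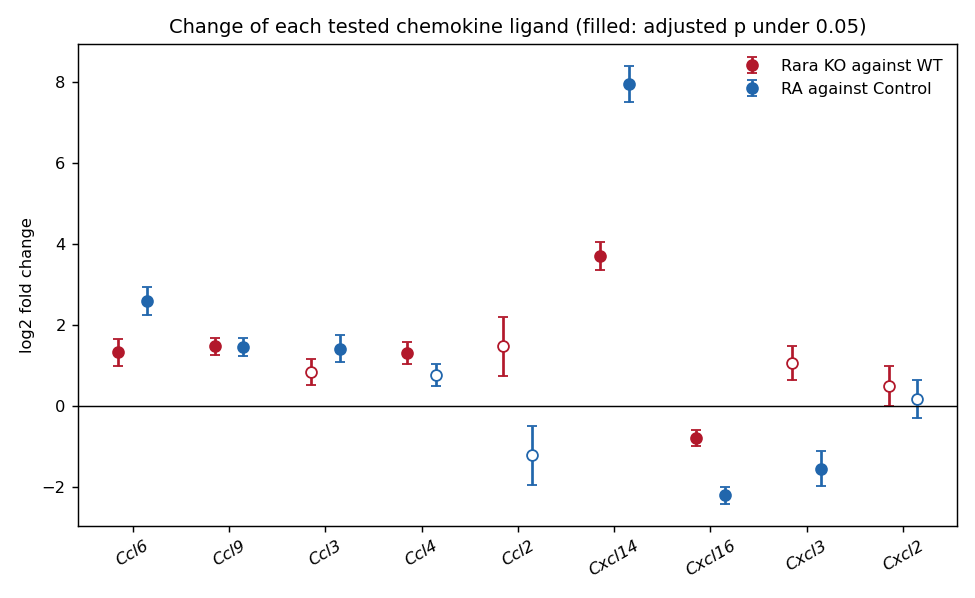
The y axis gives the log2 fold change of each of the 9 tested ligands from the edgeR fit, with bars of 1 standard error (SE), for Rara KO against WT (red) and RA against Control (blue), and filled points have an adjusted p under 0.05. *Cxcl14* stands at 3.70 and 7.95, *Cxcl16* lies below 0 in both comparisons, and *Cxcl3* lies at 1.05 in Rara KO cells and -1.56 with RA.

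*Rara* itself had 62.1 and 93.2 CPM in the Rara KO libraries, against 104 and 127 CPM in WT 1 and WT 2 (log2 fold change -0.57, edgeR adjusted p = 0.0521), and counts over the whole gene do not show the floxed exon alone. Totals ran from 26325627 to 76077813 read pairs per library. Reads in 3′ UTRs made up 48.5 and 46.5% in the Rara KO libraries, against 39.0 and 35.8% in WT 1 and WT 2, and 34.0 and 32.0% in the RA libraries, against 32.1 and 30.8% in the Control libraries. *Xist*, which is transcribed from the inactive X chromosome of female cells, had 1.08 and 0.259 CPM in the Rara KO libraries, against 91.1 and 253 CPM in WT 1 and WT 2, and no more than 0.0200 CPM in the RA and Control libraries, so sex and genotype cannot be told apart in the KO comparison. Of the dendritic cell (DC) markers 2 of 6 were lower in Rara KO and 6 of 6 with RA, and 3 of 3 LC markers were lower in both comparisons. *Cd207*, which encodes langerin, had 0.540 and 0.259 CPM in Rara KO, against 18.4 and 19.8 CPM in WT, and 0.0401 and 0.0377 CPM in the RA libraries, against 70.6 and 97.7 CPM in the Control libraries. In bulk RNA, fewer cells of a type and less RNA per cell cannot be told apart. Summed neutrophil markers had 3029 and 1457 CPM in Rara KO, against 2736 and 905 CPM in WT, and 225 and 465 CPM with RA, against 853 and 1222 CPM in Control. Of the 7 tested, 0 were called in Rara KO, and 0 were called higher and 2 lower (*S100a8* and *S100a9*) with RA. *Mmp8* had 58.1 and 256 CPM with RA, against 29.1 and 58.4 CPM in Control (log2 fold change 1.84, edgeR adjusted p = 0.0751). The other neutrophil markers had negative log2 fold changes with RA. *Mmp8* had 323 and 725 CPM in Rara KO, against 181 and 339 CPM in WT. Summed eosinophil markers (*Prg2*, *Epx*, *Siglecf*, *Il5ra*) had 211 and 139.5 CPM in Rara KO, against 49.7 and 74.9 CPM in WT, and 45.5 and 78.0 CPM with RA, against 18.9 and 29.3 CPM in Control, with 2 of the 4 markers called higher in Rara KO and 1 (*Siglecf*) called higher with RA. The defining granule genes *Prg2* and *Epx* had at most 0.735 CPM in the RA libraries. The part of these markers in the ligand results was not tested.

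*Ccl6* and *Ccl9* are neighbouring rodent genes whose proteins bind CCR1, and in these cultures they made up most of the summed CPM of the 10 ligands. *Ccl6* lies on chromosome 11 (mm10, 83587886 to 83593087, minus strand) and had 7700 and 10598 CPM in the Rara KO libraries, against 3003 and 4323 CPM in WT 1 and WT 2. It had 8752 and 5837 CPM in the RA libraries, against 859 and 1585 CPM in the Control libraries. The groups did not overlap in either comparison. The log2 fold change was 1.32 in Rara KO cells (SE 0.33, edgeR adjusted p = 0.0231) and 2.58 with RA (SE 0.35, adjusted p = 0.000975), and the difference of 1.26 between them was not called (adjusted p = 0.150). Per kilobase of transcript, *Ccl6* ranked 7 of the 12424 tested genes in both Rara KO libraries, against 22 and 15 in WT 1 and WT 2, and 4 and 5 in the RA libraries, against 113 and 35 in the Control libraries. The KO call of *Ccl6* was lost without WT 1 (log2 fold change 1.03, adjusted p = 0.117), without WT 2 (1.61, adjusted p = 0.0627) and without Rara KO 2 (1.03, adjusted p = 0.0888), while the RA call held without any single library.

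*Ccl9* (chromosome 11, 83572917 to 83578636, minus strand) had 2312 and 2882 CPM in Rara KO, against 837 and 1049 CPM in WT. With RA it had 1329 and 931 CPM, against 359 and 473 CPM in Control. Both groups stood clear of their WT libraries, and the log2 fold changes were nearly equal, at 1.46 in Rara KO (SE 0.22, edgeR adjusted p = 0.00420) and 1.44 with RA (SE 0.22, adjusted p = 0.00179). The difference between the effects was -0.02 (SE 0.30, adjusted p = 0.978). The KO call of *Ccl9* held under all 22 settings fitted. *Ccl6* and *Ccl9* together made up 93.7 and 95.5% of the summed CPM of the 10 ligands in Rara KO, against 83.2 and 88.0% in WT, and 97.1 and 93.1% with RA, against 59.5 and 71.2% in Control. That sum was 10684 and 14122 CPM in Rara KO, against 4617 and 6102 CPM in WT, and 10382 and 7273 CPM with RA, against 2048 and 2892 CPM in Control.

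**Figure D2:**
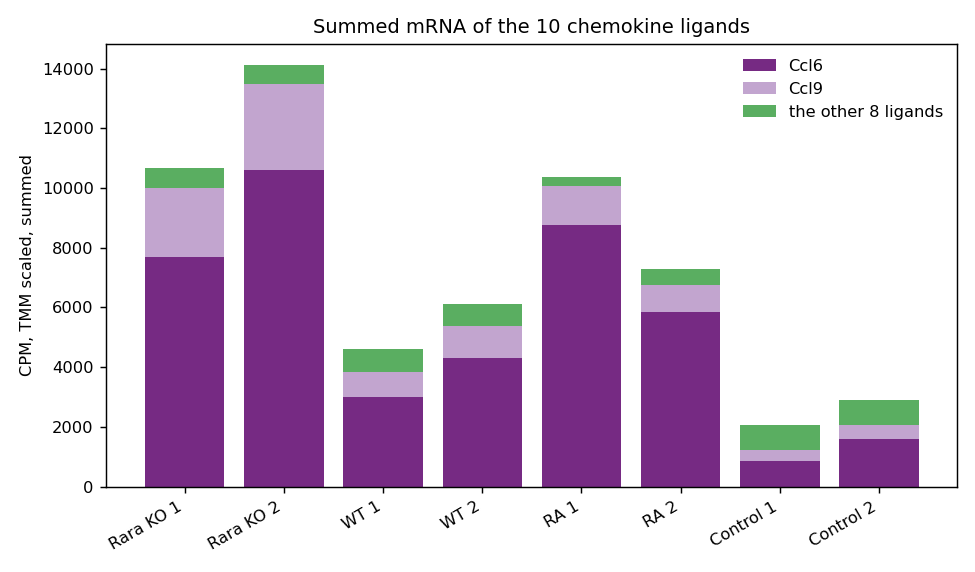
Bars give the CPM of the 10 ligands added up in each library, split into *Ccl6*, *Ccl9* and the other 8, with Rara KO beside WT 1 and WT 2 and RA beside Control. The 4 Rara KO and RA bars stand between 7273 and 14122 CPM and the 4 WT bars between 2048 and 6102 CPM, and *Ccl6* is the largest piece of each bar.

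*Ccl3* and *Ccl4*, ligands made by activated myeloid cells, lie beside *Ccl6* and *Ccl9* on chromosome 11, *Ccl3* at 83647843 to 83649378 on the minus strand and *Ccl4* at 83662584 to 83664683 on the plus strand. *Ccl3* had 133 and 143 CPM in Rara KO, against 90.1 and 66.6 CPM in WT, and 89.4 and 136 CPM with RA, against 28.2 and 56.8 CPM in Control. Its groups did not overlap in either comparison. *Ccl3* was higher with RA (log2 fold change 1.40, SE 0.33, edgeR adjusted p = 0.0124) and did not pass the test in Rara KO (0.82, SE 0.32, adjusted p = 0.0937), and the difference between the effects was 0.59 (adjusted p = 0.478). Its RA call was lost without RA 2 (1.07, adjusted p = 0.0686), and its KO value passed without Control 1 and without Control 2 (0.82 in both fits, adjusted p = 0.0411 and 0.0405).

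*Ccl4* had 70.4 and 85.3 CPM in Rara KO, against 33.7 and 29.6 CPM in WT, and 20.2 and 33.2 CPM with RA, against 12.4 and 19.3 CPM in Control. Again no group overlapped its WT libraries. *Ccl4* was higher in Rara KO (log2 fold change 1.30, SE 0.27, edgeR adjusted p = 0.0116) and had 0.76 with RA (SE 0.27, adjusted p = 0.0600), and the difference was -0.54 (adjusted p = 0.424). The KO call of *Ccl4* was lost without WT 2 (1.21, adjusted p = 0.0822). Its RA value passed without Control 2 (1.11, adjusted p = 0.0443) and without RA 1 (1.07, adjusted p = 0.0259).

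*Ccl2*, the main monocyte-drawing ligand, lies on chromosome 11 at 82035577 to 82037452 on the plus strand. It had 11.1 and 16.1 CPM in Rara KO, against 5.12 and 4.77 CPM in WT, and 0.922 and 6.14 CPM with RA, against 4.70 and 11.9 CPM in Control. The Rara KO libraries lay above WT 1 and WT 2, while the RA and Control libraries overlapped and varied widely. The log2 fold change was 1.46 in Rara KO (SE 0.73, edgeR adjusted p = 0.166) and -1.23 with RA (SE 0.73, adjusted p = 0.222), and their difference was -2.69 (adjusted p = 0.162). With the libraries of the KO experiment fitted alone, the KO value was 1.44 and passed (edgeR adjusted p = 0.0139). Without RA 2 the RA value was -3.17 (adjusted p = 0.0116) and the difference -4.63 (adjusted p = 0.0217). The KO value passed without RA 1 (adjusted p = 0.0433) and without RA 2 (adjusted p = 0.0439), at 1.46 in both fits.

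*Cxcl14* showed the largest responses of the 10 ligands in both comparisons. It lies on chromosome 13 (56288643 to 56296551, minus strand) and had 17.2 and 8.30 CPM in Rara KO, against 1.03 and 0.933 CPM in WT. It had 31.1 and 32.3 CPM with RA, against 0.118 and 0.133 CPM in Control. The RA values rest on 1554 and 1713 read pairs, and the Control values on 6 and 7. The log2 fold change was 3.70 in Rara KO (SE 0.34, edgeR adjusted p = 0.00125), which placed it 11 of 12424 genes by fold change. With RA it was 7.95 (SE 0.44, adjusted p = 1.76e-05), a fitted 247-fold change. The TMM-scaled counts gave a ratio of 252, and counting error alone put its exact 95% bounds at 147 and 474. The effect of RA exceeded that of Rara KO by 4.25 (SE 0.57, adjusted p = 0.00789). All 3 values were called under every setting fitted, with ranges of 3.03 to 4.50 in Rara KO and 5.82 to 8.03 with RA. The lowest RA value came from pooling all 4 WT libraries, where *Cxcl14* was unequal, its mean being 7.80 times higher in WT 1 and WT 2 than in Control. *Cxcl14* had at most 17.7 CPM per kilobase in any library, against 4065 to 7380 CPM per kilobase for *Ccl6* in the Rara KO and RA libraries. By CPM per kilobase *Cxcl14* ranked 4284 and 4211 of the 12424 tested genes in the RA libraries, against 12283 and 12300 in Control. It ranked 6042 and 8020 in Rara KO, against 11144 and 11303 in WT 1 and WT 2.

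*Cxcl16*, whose protein serves as a membrane anchor and scavenger receptor of DCs and macrophages as well as a chemokine, was the ligand that fell in both comparisons. It lies on chromosome 11 (70454234 to 70459984, minus strand) and had 363 and 321 CPM in Rara KO, against 593 and 606 CPM in WT. It had 98.4 and 159 CPM with RA, against 603 and 597 CPM in Control. The 4 WT libraries lay within 593 to 606 CPM, and each Rara KO and RA library lay below them. The log2 fold change was -0.81 in Rara KO (SE 0.20, edgeR adjusted p = 0.0205) and -2.22 with RA (SE 0.20, adjusted p = 0.000149), which is 1.75-fold and 4.66-fold lower, and the effect of RA was lower by 1.41 (SE 0.28, adjusted p = 0.0292). The KO call was lost without WT 2 (-0.79, adjusted p = 0.0936) and without Rara KO 2 (-0.77, adjusted p = 0.0580), and the call of the difference without WT 1 (-1.34, adjusted p = 0.0807), WT 2 (-1.43, adjusted p = 0.0887), Rara KO 1 (-1.27, adjusted p = 0.0621), Control 1 (-1.40, adjusted p = 0.0948) or Control 2 (-1.42, adjusted p = 0.0899). *Zmynd15* overlaps *Cxcl16* on the opposite strand and had 7.11 and 13.8 CPM in Rara KO, against 37.3 and 42.4 CPM in WT, and 5.07 and 6.67 CPM with RA, against 39.8 and 37.6 CPM in Control. The authors counted by strand.

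**Figure D3:**
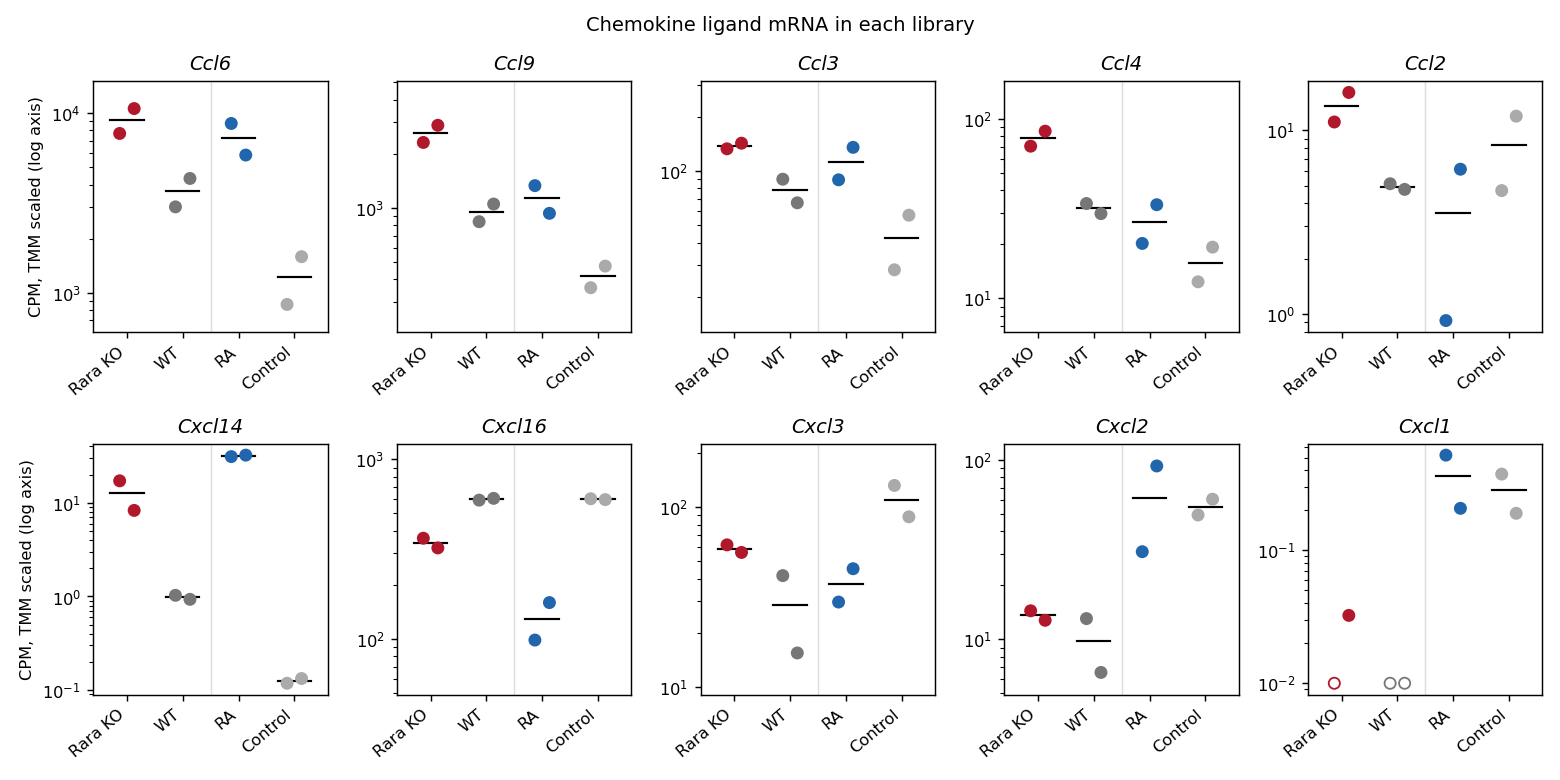
Each panel gives the CPM of 1 ligand in the 8 libraries on a log axis of its own, with a point per library, a line at the mean of each pair, and open points drawn at 0.01 for libraries with no count. *Cxcl16* lies at 593 to 606 CPM in the WT and Control libraries and lower in Rara KO and RA, and *Cxcl2* and *Cxcl3* are higher in Control than in WT 1 and WT 2.

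*Cxcl1*, *Cxcl2* and *Cxcl3* encode the CXCR2 ligands that draw neutrophils and lie close together on chromosome 5. Their promoters are shown because the 3 genes share a run of letters and were measured at very different levels. In the 250 bases before the start (RefSeq, GRCm38.p6, 5′ to 3′), each held the same run, GGGAATTTCCC, which matches the κB site of NF-κB on both strands, and capitals mark it.
*Cxcl1* (chr5:90890995-90891244, plus strand): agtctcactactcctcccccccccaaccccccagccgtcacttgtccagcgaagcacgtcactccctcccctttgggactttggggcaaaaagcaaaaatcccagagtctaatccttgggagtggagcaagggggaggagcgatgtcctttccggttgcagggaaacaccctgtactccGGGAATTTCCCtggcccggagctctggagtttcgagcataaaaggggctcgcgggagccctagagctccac
*Cxcl2* (chr5:90903649-90903898, plus strand): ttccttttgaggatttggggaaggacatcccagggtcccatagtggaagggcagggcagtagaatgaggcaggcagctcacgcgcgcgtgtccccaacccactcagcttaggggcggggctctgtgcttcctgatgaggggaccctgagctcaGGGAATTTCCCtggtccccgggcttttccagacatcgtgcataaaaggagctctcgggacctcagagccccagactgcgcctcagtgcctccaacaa
*Cxcl3* (chr5:90785851-90786100, plus strand): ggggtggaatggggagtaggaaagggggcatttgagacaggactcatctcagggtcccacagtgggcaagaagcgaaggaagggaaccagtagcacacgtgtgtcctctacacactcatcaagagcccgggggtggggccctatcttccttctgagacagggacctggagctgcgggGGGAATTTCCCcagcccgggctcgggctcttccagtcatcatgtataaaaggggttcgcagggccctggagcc
A κB match stood in 4 of the 7 ligand windows that were matched (*Ccl9* also had one), and in 7.25% of 32841 windows of the same length. In *Cxcl1* it ended 61 bases before the start, in *Cxcl2* 87 bases and in *Cxcl3* 63 bases. A match describes letters and not binding.

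*Cxcl1* (90891245 to 90893115, plus strand) was near the limit of detection, with 0 and 1 read pairs in Rara KO, against 0 and 0 in WT, and 26 and 11 with RA, against 19 and 10 in Control. Counts of 0 allow up to 0.12 CPM in Rara KO 1, and 0.0686 and 0.0400 CPM in WT 1 and WT 2. The rate with RA was 1.28 times that in Control, with an exact 95% counting interval of 0.765 to 2.16. No difference was detectable at this depth in either comparison. The WT pairs themselves differed, with 0 and 0 read pairs in WT 1 and WT 2 and 19 and 10 in Control.

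*Cxcl2* (90903899 to 90905938, plus strand) had 14.4 and 12.8 CPM in Rara KO, against 13.1 and 6.54 CPM in WT, and 30.8 and 92.5 CPM with RA, against 49.3 and 60.4 CPM in Control. The libraries overlapped in both comparisons, and the 2 RA libraries lay on either side of both Control libraries. The log2 fold change was 0.49 in Rara KO (SE 0.50, edgeR adjusted p = 0.495) and 0.17 with RA (SE 0.47, adjusted p = 0.804). The WT pairs lay further apart than either comparison, and *Cxcl2* averaged 54.8 CPM in Control and 9.80 CPM in WT 1 and WT 2.

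*Cxcl3* (90786101 to 90788093, plus strand) was the ligand with values on opposite sides of its WT libraries. It had 61.7 and 56.0 CPM in Rara KO, against 41.6 and 15.4 CPM in WT, and 29.6 and 45.4 CPM with RA, against 132 and 88.4 CPM in Control. Neither group overlapped its WT libraries, with Rara KO above and RA below. *Cxcl3* fell with RA (log2 fold change -1.56, SE 0.42, edgeR adjusted p = 0.0235) and had 1.05 in Rara KO (SE 0.42, adjusted p = 0.0987). The difference between the effects was -2.61 (SE 0.60, adjusted p = 0.0440). That call was lost without any 1 of 7 libraries, WT 2 (-2.06), Rara KO 1 (-2.49), Rara KO 2 (-2.64), Control 1 (-2.29), Control 2 (-2.87), RA 1 (-2.33) or RA 2 (-2.95), at adjusted p = 0.0550 to 0.145. The RA call was lost without Control 1 (-1.24, adjusted p = 0.116) and without RA 1 (-1.28, adjusted p = 0.136), and without WT 1 the KO value was 1.88 (adjusted p = 0.0116).

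The means of the WT pairs also lay apart in other ligands. *Ccl6*, *Ccl9*, *Ccl3* and *Ccl4* averaged 3.00, 2.27, 1.84 and 2.00 times as much in WT 1 and WT 2 as in the Control libraries, while *Cxcl2* and *Cxcl3* averaged 5.60 and 3.87 times as much in Control, and *Cxcl16* averaged 599.3 CPM in WT 1 and WT 2 and 599.8 CPM in Control. The paper describes a single WT group of 4 samples beside its ∆*Rara* and RA samples. With all 4 WT libraries pooled as the controls of both comparisons, *Ccl3* (0.90, edgeR adjusted p = 0.106), *Ccl6* (1.58, adjusted p = 0.0564), *Ccl9* (0.73, adjusted p = 0.198) and *Cxcl3* (-0.89, adjusted p = 0.379) were no longer called with RA. *Cxcl14* (5.82, adjusted p = 0.000804) and *Cxcl16* (-2.22, adjusted p = 0.000202) kept their RA calls in the pooled fit. In that fit *Ccl3* was called in Rara KO (1.19, adjusted p = 0.0379), and *Cxcl2* and *Cxcl3* had -1.25 and -0.24 there.

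All 9 tested ligands fell in the shortest quintile of genes by coding length, and in that quintile 36.8% of genes were higher and 5.03% lower in Rara KO, against 3.21 and 28.2% in the longest quintile. With RA the shares in the shortest quintile were 23.1 and 16.1%. After trends on coding length, UTR length and GC content had been removed, 2 ligands stayed higher in Rara KO, *Ccl9* (1.07, adjusted p = 0.0231) and *Cxcl14* (3.36, adjusted p = 0.00222). In that fit 8.11% of genes in the shortest quintile were higher in Rara KO and 10.2% lower. *Ccl4* (0.71, adjusted p = 0.140) and *Ccl6* (0.84, adjusted p = 0.143) were no longer called there, and *Cxcl16* kept its call (-0.92, adjusted p = 0.0208). The RA calls of the 6 ligands all held in that fit, and the difference for *Cxcl3* did not (-2.32, adjusted p = 0.0515). With RA, 16.8% of genes in the shortest quintile were then higher and 19.7% lower.

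**Figure D4:**
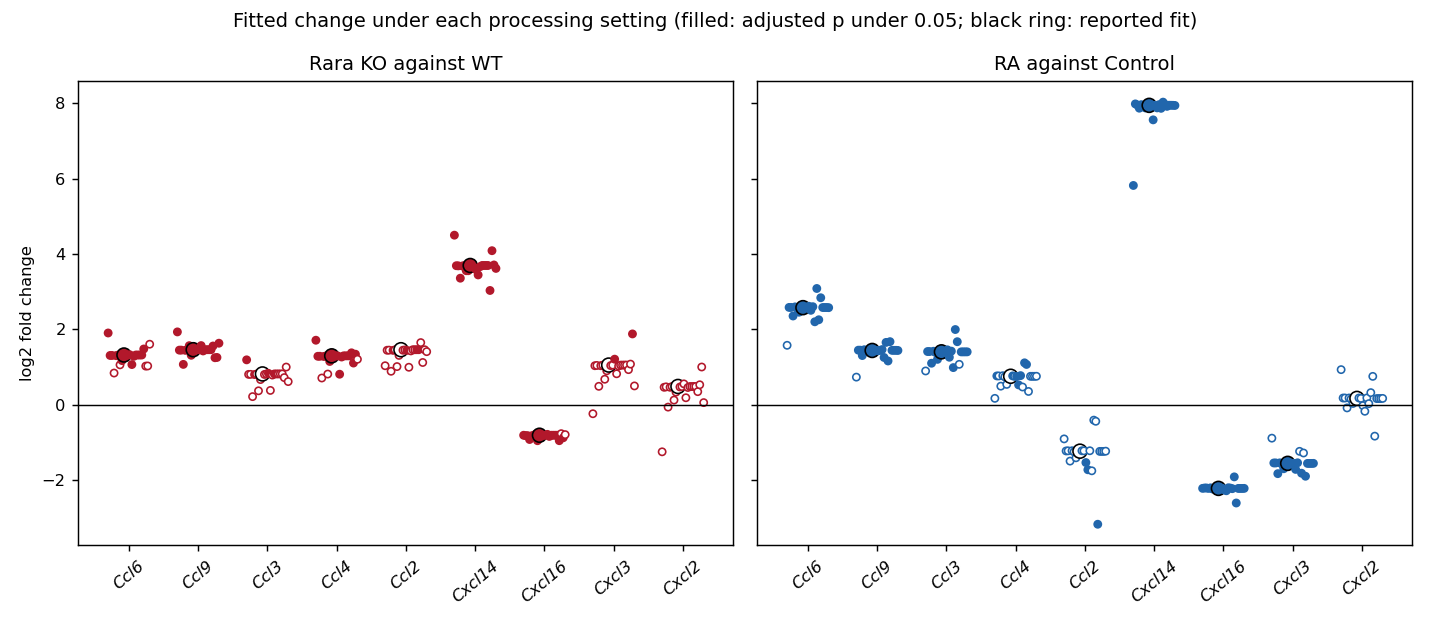
Each point gives the fitted log2 fold change of a ligand under 1 of the 22 settings (other scalings, filters, tools, controls, trends and each library left out), for Rara KO against WT (left) and RA against Control (right), with the reported fit ringed in black and filled points at an adjusted p under 0.05. The *Cxcl2* points lie on both sides of 0 in both panels, and the *Cxcl3* points do so in the left panel only. The points of the other ligands, *Cxcl14* and *Cxcl16* among them, keep their side of 0 in both panels.

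*Ccl9*, *Ccl6*, *Ccl3* and *Ccl4* follow one another on chromosome 11 with no other gene of the table between them except *E230016K23Rik*, which spans *Ccl6* on the opposite strand and had 27.5 and 58.7 CPM in Rara KO, against 7.59 and 15.1 CPM in WT, and 19.7 and 12.8 CPM with RA, against 2.11 and 4.11 CPM in Control. Across the 8 libraries the log2 levels of *Ccl6* correlated at 0.93 with *Ccl9*, 0.90 with *Ccl3* and 0.76 with *Ccl4*, and at 0.90 with *Cxcl14* on another chromosome. *Cxcl14* and *Cxcl16* were inversely related (Pearson r = -0.85), and *Cxcl2* and *Cxcl3* reached 0.57. These values describe 8 libraries that share groups and experiments. The genes most like *Ccl6* over the 8 libraries were *Vat1* (0.995) and *Ptger2* (0.991), those most like *Cxcl14* were *Cotl1* (0.996) and *Angptl4* (0.993), and the gene most like *Cxcl16* was *Cdh1* (0.997). *Cdh1* encodes E-cadherin, one of the LC markers counted above.

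Promoters of *Ccl6* and *Cxcl14* are shown because these 2 genes had the largest responses to RA among the ligands. Both held 1 AGGTCA in reverse orientation, where it reads TGACCT and is given in capitals, the half-site that RAR binds as a repeat with its partner RXR.
*Ccl6* (chr11:83593088-83593337, minus strand): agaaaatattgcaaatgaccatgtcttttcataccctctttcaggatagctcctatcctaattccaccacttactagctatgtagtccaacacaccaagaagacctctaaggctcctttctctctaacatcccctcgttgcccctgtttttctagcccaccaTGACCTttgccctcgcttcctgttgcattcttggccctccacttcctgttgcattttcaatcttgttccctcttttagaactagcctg
*Cxcl14* (chr13:56296552-56296801, minus strand): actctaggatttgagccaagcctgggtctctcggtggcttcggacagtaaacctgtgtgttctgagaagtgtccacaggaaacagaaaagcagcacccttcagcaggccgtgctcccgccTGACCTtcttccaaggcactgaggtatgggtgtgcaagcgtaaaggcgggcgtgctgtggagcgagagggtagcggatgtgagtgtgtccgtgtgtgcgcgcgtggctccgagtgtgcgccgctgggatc
An AGGTCA, on either strand, stood in 3 of the 7 ligand windows (*Ccl3* also had one) and in 14.0% of all windows. No ligand window held a second one. It ended 83 bases before the start in *Ccl6* and 125 bases in *Cxcl14*, and a single half-site is a description of the sequence alone.

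Of 16 other CC ligands 7 were tested, with 2 higher and 2 lower in Rara KO (median log2 fold change 1.15) and 0 higher and 2 lower with RA (median -1.78). *Ccl22*, which draws regulatory T cells, fell in both, with 65.5 and 77.8 CPM in Rara KO, against 240.0 and 181 CPM in WT, and 30.2 and 36.5 CPM with RA, against 517 and 534 CPM in Control (log2 fold changes -1.55 and -3.98). *Ccl17*, which shares the receptor CCR4 with *Ccl22*, rose in Rara KO (1.35, edgeR adjusted p = 0.0208) and had -0.49 with RA (adjusted p = 0.271), and *Ccl5* fell in both (-1.20 and -4.38). *Ccl25* rose in Rara KO (1.15, adjusted p = 0.0133) and had 0.59 with RA (adjusted p = 0.0945). Of 12 other CXC, C and CX3C ligands 4 were tested, with 1 higher in Rara KO (median 0.08) and 3 lower with RA (median -2.56). *Pf4*, a chemokine of platelets and macrophages, rose in Rara KO (1.37, adjusted p = 0.00158) and fell with RA (-2.35, adjusted p = 2.93e-05). *Cxcl10*, an interferon-induced ligand, fell with RA (-2.78, adjusted p = 0.00120). *Ppbp* fell with RA as well (-2.79, adjusted p = 0.0104), and *Cx3cl1* had 0.24 in Rara KO and 0.08 with RA, neither called.

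Among receptors of the ligands, *Ccr2*, the receptor of CCL2, had 610.1 and 659 CPM in Rara KO, against 242 and 209 CPM in WT, and 495 and 595 CPM with RA, against 90.4 and 97.5 CPM in Control. It rose in both comparisons (log2 fold change 1.49, edgeR adjusted p = 0.00104, and 2.54, adjusted p = 1.27e-05), while its ligand gene *Ccl2* passed in neither. *Ccrl2*, which encodes an atypical chemokine receptor, rose with RA (1.02, adjusted p = 0.0421) and had 0.30 in Rara KO, and *Cxcr2* had -1.05 with RA (adjusted p = 0.0782) and -0.38 in Rara KO. *Cxcr6*, which encodes the receptor of CXCL16, had at most 1 read pair in any library. Of 7 proteases that free or trim chemokines, 1 was higher in Rara KO (median 0.54), and 1 was higher and 2 were lower with RA (median -0.41). *Adam10* rose in both (0.67, edgeR adjusted p = 0.00635, and 0.91, adjusted p = 0.000704), with 266 and 244 CPM in Rara KO, against 161 and 160.0 CPM in WT, and 280.0 and 319 CPM with RA, against 146 and 172 CPM in Control. *Ctsg* and *Mmp9*, which encode proteases of neutrophil granules, fell with RA (-2.52, adjusted p = 0.00945, and -2.90, adjusted p = 0.0103) and had 0.61 and -0.11 in Rara KO, and *Mmp12*, a macrophage elastase gene, had 0.39 in Rara KO and -0.41 with RA, neither called.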

How the data were processed

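Poly(A) RNA of 8 libraries of CD11c+ cells was sequenced as paired reads of 100 bases. The authors aligned reads with STAR to mm10 and assigned uniquely mapped pairs to RefSeq genes by strand with featureCounts (mapping quality of at least 10), and deposited unnormalised counts. Other values taken from the deposited mapping summary are the authors' own totals and shares of reads (percent) per library. The authors' versions of STAR, featureCounts and edgeR are not given, and the columns of the authors' own comparisons were not used. Libraries were grouped by column name, and no name says which Control column is which of the other WT samples.

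Counts were fitted with edgeR 4.0.16 under R 4.3.3 by its quasi-likelihood functions after TMM scaling, with all 8 libraries as 4 groups of 2. Each effect was thus taken within its experiment, as inferred from the column names, with 4 residual degrees of freedom. Benjamini-Hochberg adjustment was made over 12424 genes. CPM values use TMM library sizes, and a standard error (SE) was taken as |log2 fold change| over √F. Depth was 26325627 to 76077813 pairs per library, and counting error is largest below 0.5 CPM. Promoter windows were matched for 7 of the 10 ligands, and coding lengths for 92.8% of tested genes came from the mm10 annotation. Similarity used log2 CPM with a prior count of 2. All 10 ligands are named, with up to 4 genes of each other list by smallest p. Counts over the list of receptors, and some genes that this rule names, are not reported here. The ligands and lists were chosen with earlier results of these data known. Alternatives were DESeq2 1.42.0, scaling by upper quartiles, RLE or library totals, other filters and thresholds, the compared libraries alone, pooled WT libraries, a replicate block, length and GC trends, a prior count of 2 and each library left out.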

Additional observations from a re-analysis of the deposited data

Results flagged for a closer look

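Among the 4 WT libraries, *Ccl2* was far higher in Control 2, at 11.9 CPM, than in the others (4.70 CPM in Control 1, 5.12 CPM in WT 1, 4.77 CPM in WT 2). The gap to the nearest of them was 0.942 of the whole range. Of 10 ligands looked at in this way it was the single one past Dixon's limit for 4 samples, and chance passes about 1 group in 20. Without Control 2 the log2 fold change of *Ccl2* with RA was -0.41 (adjusted p = 0.781, edgeR), against -1.23 with it, and neither was called.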

How the results depend on the processing

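The 27 ligand effects were refitted under the alternatives, giving 549 values, of which 476 kept their direction and side of the threshold, 31 lost a call, 25 gained one and 17 changed direction. DESeq2, RLE and upper-quartile factors, library totals, no filter and the filter of the methods moved no count of called ligands by over 1.5 times. With library totals the calls over all genes in Rara KO split into 979 higher and 2770 lower, against 1688 and 1658 with TMM factors, and the median of all genes shifted to -0.14, but the ligand calls stayed at 4 higher and 1 lower. With the compared libraries fitted alone, 6 ligands were called higher in Rara KO, adding *Ccl2* (1.44) and *Ccl3* (0.80), while calls over all genes fell to 1069 higher. With the 4 WT libraries pooled, 1 ligand was called higher and 1 lower with RA, against 1339 and 1920 over all genes. In that fit *Cxcl2* and *Cxcl3* changed direction in Rara KO, at -1.25 and -0.24. With the length trend removed, 2 ligands were called higher in Rara KO and 1 lower for the difference, against 1111 and 477 over all genes. With coding length, UTR length and GC trends removed these were again 2 and 1, against 1062 and 554 over all genes. In that fit *Ccl9* changed direction for the difference (0.23) and *Cxcl2* did with RA (-0.083) and in Rara KO (-0.062). *Ccl9* also changed direction for the difference with upper-quartile factors (0.037), library totals (0.10) and no filter (0.0033). At an adjusted p under 0.01, 2 ligands were higher and 0 lower in Rara KO, 1 was lower with RA and 0 were lower for the difference. Over all 12424 genes that threshold left 597 higher and 569 lower in Rara KO, 1476 lower with RA and 109 lower for the difference. Leaving out each library in turn gave 2 to 5 higher and 0 to 1 lower in Rara KO, 3 to 5 higher and 1 to 3 lower with RA, and 0 to 2 lower for the difference. Over those fits the difference for *Ccl9* ran from -0.30 to 0.21, that for *Cxcl2* from -1.32 to 0.27, and the RA value of *Cxcl2* from -0.83 to 0.75. The causes were not tested.

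Same-numbered libraries deviated together (correlation 0.38 in the KO experiment and 0.28 in the RA experiment), but with 2 pairs and no label this does not pair them. A replicate block raised the ligands called higher in Rara KO to 7, adding *Ccl2* (1.45), *Ccl3* (0.83) and *Cxcl3* (1.21), and also called *Ccl2* with RA (-1.53) and for the difference (-2.98) and *Ccl4* with RA (0.75). The block raised calls over all genes too, in Rara KO from 1688 to 2407 higher and from 1658 to 2247 lower. With RA these went from 1894 to 2542 higher and from 2397 to 2916 lower. The block turned *Cxcl2* with RA to -0.023. With the length trend removed as well it gave 2 higher for the difference, against 498 over all genes, and -0.17 for *Cxcl2* with RA.

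With 2 libraries a group and 4 residual degrees of freedom, a ligand that missed the threshold is not shown to be unchanged. *Cxcl1* and the *Cxcl14* controls rest on few counts.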
